A study of Rattus norvegicus with 3 samples.

Results

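Cadherins are calcium-dependent adhesion molecules that join neighbouring cells, and the genes described here are the cadherins, the protocadherins, their large relatives of the Fat, Dchs, Celsr and calsyntenin families, and the catenins that bind cadherin tails inside the cell. The members were all rows of the deposited gene table whose symbol is Cdh followed by digits alone, begins with Pcdh, or is one of Celsr1 to Celsr3, Fat1 to Fat4, Dchs1 and Dchs2 or Clstn1 to Clstn3, together with Ctnna1, Ctnna2, Ctnna3, Ctnnd1, Ctnnd2 and Jup. Of 17337 genes listed, 83 met this rule. Celsr1, Dchs2, Ctnna3, Cdh4, Cdh12, Cdh18, Cdh24, Pcdh1 and Pcdh10 were not among these rows, so their levels are not known here. Groups below hold listed genes only. The rule reads gene names and no measured value, although it was written with earlier results of these data known.

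The 3 libraries were made from cultured, untreated Schwann cell precursors of wild-type embryonic rats, taken from the dorsal root ganglion and grown in a DMEM-based modified Sato medium. Schwann cell precursors are the early glia of the peripheral nerve. All 3 libraries belong to 1 group, and nothing in the labels says whether they came from separate cultures, so a p-value here reflects how far these libraries differ from each other, and that difference may be purely technical. Levels are given as TPM (counts divided by the listed gene length, scaled to the same total in every library), which allows genes of different length to be compared, and ± denotes the SD over the libraries (n = 3).

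Classical cadherins bind the same or a similar cadherin on the next cell through their outer domains, while their tails hold p120 catenin and beta-catenin or plakoglobin, and alpha-catenin ties that complex to actin. In peripheral glia, N-cadherin and the glial cadherin-19 are the best-known members, and N-cadherin is known for contacts among precursors and with axons. Clustered protocadherins are made from large gene arrays in which each first exon has its own promoter and, in the alpha and gamma arrays, is spliced to constant exons shared by the whole array.

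Library totals were 14139074 to 15309526 counts. Markers of the Schwann cell lineage were high and above 1 TPM by limma. Among them were S100b at 2061 ± 14.9 TPM, Ednrb at 1414 ± 16.7, Ngfr at 655 ± 20.7 and Sox10 at 612 ± 26.0. Whether the cells were at the precursor stage or a later one was not tested. Fibroblast markers were also high, with 6 of 7 genes above 1 TPM and a summed level of 8283 to 8483 TPM, led by Col1a1 at 3842 ± 64.6, Col3a1 at 2009 ± 34.3 and Dcn at 842 ± 20.3. The seventh, Col1a2, was at 0.137 ± 0.0393 TPM and is listed at more than 1 place in the genome. Neuronal markers summed to 752 to 776 TPM (9 of 9 above), with Tubb3 at 185 ± 5.76, Prph at 176 ± 5.71 and Nefl at 130.1 ± 3.68. Mural markers summed to 953 to 1007 TPM (6 of 6 above), led by Tagln at 466 ± 12.98, Acta2 at 317 ± 10.9 and Pdgfrb at 173 ± 3.23. The other mural genes were much lower, Cspg4 at 7.49 ± 0.309, Kcnj8 at 7.44 ± 1.20 and Rgs5 at 3.26 ± 1.57 TPM. Macrophage markers summed to 24.7 to 29.8 TPM (4 of 6 above), led by Lyz2 at 9.85 ± 0.463, Tyrobp at 8.35 ± 1.32 and Cd68 at 5.10 ± 1.499. Of the others, Csf1r was at 2.31 ± 0.204 TPM. Aif1, at 1.21 ± 0.670, passed in neither direction, and Ptprc was below at 0.316 ± 0.0756 TPM. In bulk libraries, fewer cells of a type and less RNA per cell cannot be told apart. Whether cells of these other types were present, and their part in the levels below, was not tested.

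Of the 83 members, 78 had at least 1 count and 5 had none. By limma against 1 TPM, at a Benjamini-Hochberg adjusted p under 0.05 over all 13345 genes tested, 50 of the 78 were above, 25 below and 3 in neither direction. Across all genes tested, 78.4% were above and 17.8% below. The members' counts correspond to 64.1% above and 32.1% below. The median of the mean levels was 3.32 TPM for the 78 tested members, against 21.7 TPM for all genes tested. Over listed lengths, the family thus held a smaller share of genes above 1 TPM than the table as a whole. Of the 25 below, 12 were alpha protocadherins, whose listed lengths include exon bases shared between rows. Among the 55 members that share no exon base, 36 were above and 13 below, and 5 had no count and were not tested. These counts are therefore not on the same basis as the 64.1% and 32.1%. How much of the smaller share comes from the alpha rows was not tested. At 100 TPM or more were 9 members, among them the catenins Ctnna1, Ctnnd1 and Jup. The share of all genes at that level was not computed.

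Each clustered protocadherin has its own promoter, so letters of those promoters are shown before the levels. RefSeq promoter windows of the GRCr8 assembly, from 250 bases before to 50 bases after each start, were matched by gene identifier for 56 members, 24 of them clustered. The motif CGCTGT, chosen after the windows were read, contains the CGCT core known from clustered protocadherin promoters. It was found on either strand in 16 of the 24 clustered windows, in 6 of the 32 other members' windows and in 9.89% of all 27457 promoter windows. Among gamma members it was present in 11 of 12 windows, each time on the forward strand, and among beta members in 5 of 11, with 3 of those on the forward strand. The Pcdhga11 match began at -235 relative to the start, away from the other gamma matches, which began at -164 to -20. Of the 15 alpha members 1 was matched, and its window did not hold the motif, so the clustered count describes the gamma and beta arrays. A match describes the letters and is not a measured binding site. All 14 clustered windows with a forward match are shown, as segments of 60 bases around the motif (51 for Pcdhga11, where the window ends). The 11 gamma members come first and the 3 beta members after them, each set in falling order of level, on the plus strand of GRCr8, 5′ to 3′, with the motif in capitals.
Pcdhgc3 (chr18:29884057-29884116): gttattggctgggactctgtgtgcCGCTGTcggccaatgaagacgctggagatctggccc
Pcdhga7 (chr18:29794196-29794255): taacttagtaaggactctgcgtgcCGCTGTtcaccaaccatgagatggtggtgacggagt
Pcdhgb8 (chr18:29839487-29839546): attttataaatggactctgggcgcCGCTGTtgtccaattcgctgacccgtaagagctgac
Pcdhga2 (chr18:29745074-29745133): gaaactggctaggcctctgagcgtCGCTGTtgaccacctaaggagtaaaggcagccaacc
Pcdhga10 (chr18:29825805-29825864): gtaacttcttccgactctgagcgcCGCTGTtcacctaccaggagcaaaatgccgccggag
Pcdhga3 (chr18:29750306-29750365): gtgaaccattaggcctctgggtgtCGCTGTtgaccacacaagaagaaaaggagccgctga
Pcdhga11 (chr18:29834356-29834406): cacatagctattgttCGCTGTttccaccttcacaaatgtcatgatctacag
Pcdhga12 (chr18:29843853-29843912): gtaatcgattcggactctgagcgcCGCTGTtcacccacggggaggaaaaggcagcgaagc
Pcdhga5 (chr18:29770894-29770953): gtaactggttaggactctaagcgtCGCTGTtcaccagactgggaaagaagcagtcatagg
Pcdhga8 (chr18:29804991-29805050): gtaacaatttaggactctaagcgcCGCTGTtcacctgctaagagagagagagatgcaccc
Pcdhga9 (chr18:29815774-29815833): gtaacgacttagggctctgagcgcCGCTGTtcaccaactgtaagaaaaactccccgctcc
Pcdhb3 (chr18:29285595-29285654): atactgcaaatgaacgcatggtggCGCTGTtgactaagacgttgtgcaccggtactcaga
Pcdhb20 (chr18:29485801-29485860): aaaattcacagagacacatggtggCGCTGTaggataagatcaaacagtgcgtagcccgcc
Pcdhb10 (chr18:29391769-29391828): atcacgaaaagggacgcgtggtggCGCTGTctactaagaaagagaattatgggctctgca

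The levels of the genes shown ran from 57.2 ± 0.855 TPM for Pcdhgc3 to 0.952 ± 0.0665 TPM for Pcdhga9. These genes were picked for the motif, and most alpha genes had no matched window, so its relation to level was not tested.

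The classical cadherins were dominated by a few genes. Cdh2, N-cadherin, was at 201, 190 and 195 TPM in replicates 1, 2 and 3 (195 ± 5.80). It made up 84.8 ± 0.345% of the summed level of the 4 listed type I cadherins, which was 230 ± 7.67 TPM. Cdh1, E-cadherin of epithelia, was at 35.1, 31.4 and 33.4 TPM (33.3 ± 1.87), and was above 1 TPM by limma (adjusted p = 3.0e-11). Both genes were therefore expressed, with Cdh2 at 5.87 ± 0.160 times the TPM of Cdh1 and no overlap between their libraries. Epithelial markers were near the floor beside Cdh1: 1 of the 7 was above 1 TPM, Krt8 at 3.21 ± 0.249, the summed level was 3.22 to 4.35 TPM, Epcam was at 0.297 ± 0.203, Cldn7 at 0.127 ± 0.130 and Esrp1 had no count.

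Cdh3, P-cadherin, which lies next to Cdh1 on chromosome 19 and on the same strand in rn6 (Cdh3 at chr19:38669558-38719801, Cdh1 at chr19:38768467-38838395), was at 1.02, 1.14 and 1.47 TPM. It passed in neither direction against 1 TPM (limma adjusted p = 0.145), and Cdh1 exceeded it 28.3 ± 5.91 times. Cdh15, M-cadherin of muscle precursors, was at 0.597, 0.481 and 0.587 TPM and below 1 TPM (limma adjusted p = 0.0011). In the myoblast marker list Myod1, Myog, Myf5 and Pax7 had no count, and Des was at 7.89 ± 1.29 TPM.

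Type II cadherins, a related family with a different binding pocket in the outermost domain, gave the largest summed level of any cadherin group, 559 ± 21.2 TPM. Cdh19, the cadherin associated with the Schwann cell lineage, was at 257, 240 and 243 TPM (247 ± 9.13). Cdh11, osteoblast cadherin, known also from mesenchyme and neural crest, was at 247, 229 and 238 TPM (238 ± 9.42). The library ranges of these top members overlapped, and within each library Cdh19 was 1.04 ± 0.0139 times Cdh11, so their order in TPM rests on a difference of a few percent. With 3 libraries the smallest p of an exact sign-flip permutation test is 0.25, so the order of neighbouring members was not tested. Cdh11 is also known from fibroblasts, whose markers are given above, and their part in its level was not tested.

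Cdh6, K-cadherin, was next among the type II genes at 58.3, 54.3 and 57.4 TPM (56.7 ± 2.09), a level 4.20 ± 0.0513-fold under that of Cdh11. Cdh5, the VE-cadherin of endothelium, was at 17.8, 16.03 and 16.1 TPM (16.6 ± 1.03; limma adjusted p = 7.2e-10). The endothelial markers beside it were uneven. Emcn was at 13.7 ± 0.836 and Tek at 4.69 ± 0.211 TPM, whereas Tie1 was at 0.086 ± 0.0418, Kdr at 0.178 ± 0.105, Pecam1 at 0.0693 ± 0.0695 and Cldn5 had no count. The 6 endothelial markers summed to 18.0 to 19.4 TPM, with 2 above 1 TPM and defining members such as Pecam1 and Cldn5 at or near 0, and no part of Cdh5 was assigned to a cell type.

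The remaining listed type II genes were low or silent, and several are on the same chromosomes as the abundant members, though not adjacent to them. On rn6 chromosome 13, Cdh20 (chr13:24846480-24913440), Cdh7 (chr13:31092405-31228088) and Cdh19 (chr13:32346867-32427016) follow each other within the rule's members. Cdh20 was at 0.173 ± 0.0512 TPM from 9 counts over the 3 libraries, Cdh7 had no count, and Cdh19 was the highest cadherin of all. On chromosome 19, Cdh11 (chr19:2393059-2551245) lies between Cdh5 (chr19:1025122-1074333) and Cdh8 (chr19:6031935-6422401), and Cdh8 had no count. On chromosome 2, Cdh6 (chr2:63100723-63246618) is followed by Cdh9 at 0.177 ± 0.0473 and Cdh10 at 0.135 ± 0.0464 TPM. Cdh22 was at 0.123 ± 0.0418 TPM. These 4 low genes were below 1 TPM by limma. For Cdh7 and Cdh8, 3 counts in a library would correspond to 0.131 to 0.185 TPM, the limit of detection by counting error alone.

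Among cadherins outside both classes, Cdh13 stood alone. Cdh13, T-cadherin, is held in the membrane by a lipid anchor and lacks the catenin-binding tail. It was at 103, 104 and 105 TPM (104 ± 1.02) and formed 99.6 ± 0.0610% of its group's summed level. Cdh23, a long cadherin of hair cell tip links, was at 0.295 ± 0.0363 TPM and Cdh17, an intestinal cadherin, at 0.155 ± 0.0999 TPM, both below 1 TPM by limma. The kidney cadherin Cdh16 and the cadherin Cdh26 had no count, with 3 counts corresponding to 0.142 to 0.191 TPM.

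**Figure D1:**
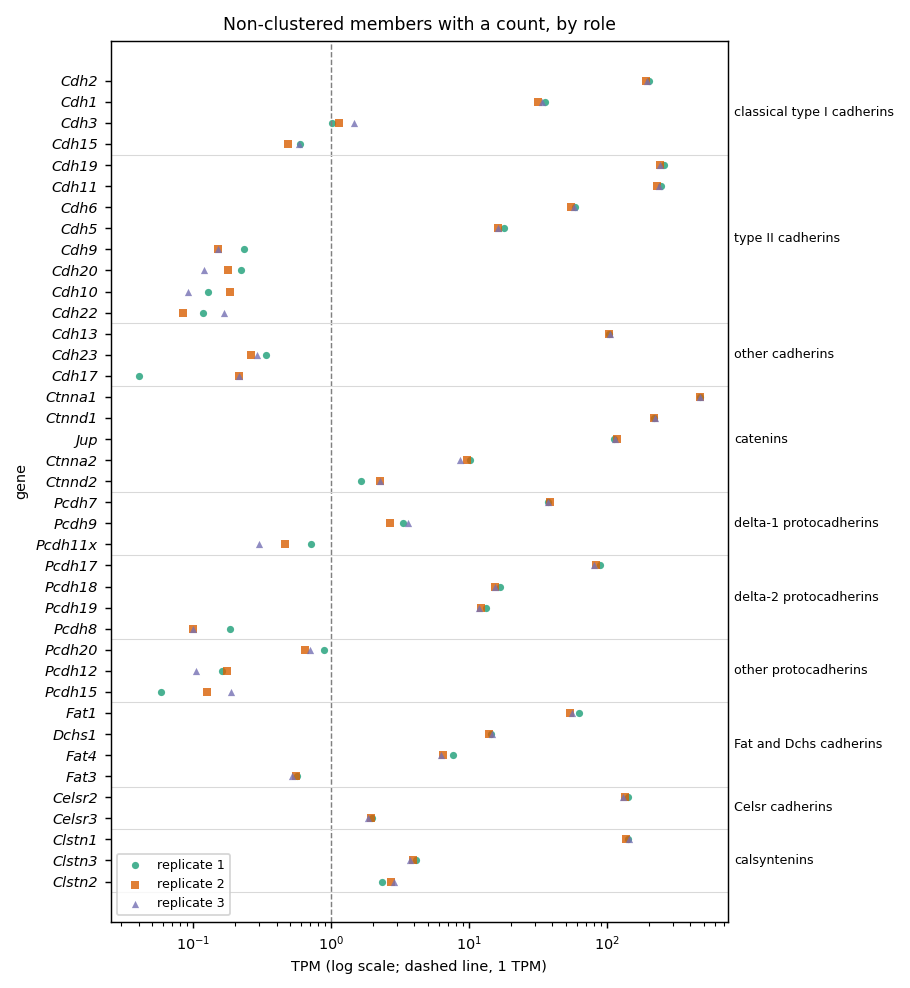
TPM (log axis) of each non-clustered member with a count, in replicates 1, 2 and 3, grouped by role and ordered by mean level; the dashed line marks 1 TPM. Ctnna1 at 468 TPM, Cdh19 at 247 TPM and Cdh11 at 238 TPM lie highest, and members such as Cdh20 and Pcdh8 lie under 0.2 TPM.

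The catenins, which couple cadherins to the cytoskeleton, were the group with the highest summed level, 813 ± 2.91 TPM or 33.7 ± 0.709% of all member TPM. Ctnna1, the widely expressed alpha-catenin, was the highest member of all at 468, 468 and 467 TPM (468 ± 0.692). Ctnna2, the neural alpha-catenin, was at 10.2, 9.58 and 8.60 TPM (9.46 ± 0.804), lower by 49.7 ± 4.24-fold. Ctnnd1, p120 catenin, which keeps cadherins at the cell surface, was at 218, 218 and 221 TPM (219 ± 1.61), and its neural relative Ctnnd2 was at 1.63, 2.25 and 2.25 TPM (2.04 ± 0.358). Thus in both pairs the neural relative was the lower gene in 3 of 3 libraries, and all 4 genes were above 1 TPM. Jup, plakoglobin, which can take the place of beta-catenin and also serves desmosomes, was at 112, 118 and 113 TPM (115 ± 3.33). Ctnnb1, beta-catenin, which is no member by the rule, was at 938 ± 19.9 TPM, 8.19 ± 0.347 times Jup and 2.01 ± 0.0397 times Ctnna1.

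Set against the catenins, the type I and type II cadherins together came to 789 ± 28.8 TPM. That sum was 1.69 ± 0.0601 times Ctnna1, 3.604 ± 0.138 times Ctnnd1 and 0.750 ± 0.0208 times the sum of Ctnnb1 and Jup. Such ratios of transcript levels rest on the listed gene lengths and say nothing of protein amounts.

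**Figure D2:**
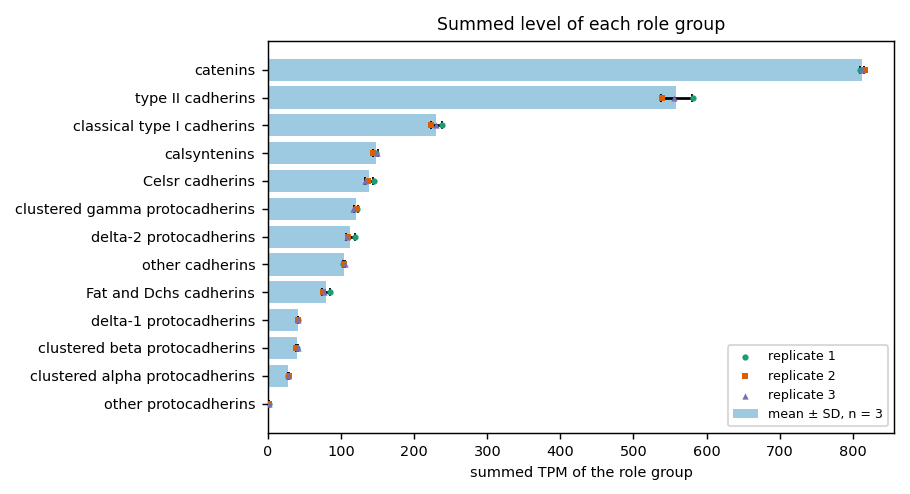
Summed TPM of each role group (bars, mean; error bars, SD; points, replicates 1, 2 and 3). Catenins at 813 TPM and type II cadherins at 559 TPM lead, and the 3 clustered protocadherin groups sum to 188 TPM over listed gene lengths.

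Non-clustered protocadherins, signalling and adhesion molecules with tails unlike those of cadherins, were expressed through a few genes. Among the delta-2 group, Pcdh17 was at 89.2, 82.3 and 80.4 TPM (84.0 ± 4.60) and made up 74.8 ± 0.0298% of the group. Pcdh18 followed at 16.8, 15.5 and 15.2 TPM (15.8 ± 0.828), and the X-linked Pcdh19 at 13.2, 12.2 and 11.7 TPM (12.4 ± 0.719). All 3 were highest in replicate 1. Pcdh8 was at 0.128 ± 0.0491 TPM from 8 counts, and was below 1 TPM by limma. In rn6, Pcdh8 (chr15:62197060-62200837) and Pcdh17 (chr15:67555835-67645088) are on the same chromosome as Pcdh20 (chr15:71772777-71779033) and Pcdh9 (chr15:76787110-77736775), with levels that differ widely.

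In the delta-1 group, Pcdh7 was at 36.9, 38.6 and 37.0 TPM (37.5 ± 0.960), 91.1 ± 1.28% of the group, and Pcdh9 was at 3.31, 2.65 and 3.58 TPM. Pcdh11x was at 0.710, 0.464 and 0.298 TPM, below 1 TPM by limma (adjusted p = 0.0023), but without replicate 2 its adjusted p was 0.0598. Pcdh20, Pcdh12 and Pcdh15 formed the group of other protocadherins, outside both delta groups. Pcdh20 was at 0.889, 0.646 and 0.701 TPM (0.745 ± 0.127), close to the reference level. It was below by limma with an adjusted p of 0.031, and the call was lost without replicate 2 (0.109), without replicate 3 (0.110), with a pseudocount of 0.1 (0.0812) and with genes under a mean of 0.1 TPM left out (0.061). Pcdh12, known from endothelium, was at 0.147 ± 0.0374 and Pcdh15, the partner of Cdh23 in tip links, at 0.123 ± 0.0645 TPM, both below.

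The clustered protocadherins lie in 3 neighbouring arrays on the plus strand of rn6 chromosome 18, with 15 alpha, 11 beta and 13 gamma members. No row is named Pcdhgc4 or Pcdhgc5, so order and shares in the gamma array are those of the listed rows. The alpha members span chr18:29951094-30215897, the beta members chr18:30375798-30590789 and the gamma members chr18:30808404-30971115. Each alpha member shares 52.7% to 54.8% of its listed exon bases with the 14 others, and each gamma member shares 44.0% to 46.1% with the 12 others. Beta members share none. No other member overlaps an exon of another row on either strand, and no member is listed at more than 1 place.

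This sharing bears on the levels. Pcdha8 and Pcdha12 list the same 2856 constant exon bases as Pcdhac2, yet had 8 counts each over the 3 libraries, against 2500 for Pcdhac2. Reads of the constant exons were therefore not added to every row that lists them, while the listed length still includes those bases. Whether such reads were dropped or given to 1 row was not tested. Levels are therefore given both over the listed length and, as a second value, over the exon bases that no other row lists, with the scaling of each library kept. The second value was chosen after seeing the data, is 1.79 to 2.21 times the first in the alpha and gamma arrays, and is too high for any gene that received constant exon reads.

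In the gamma array, Pcdhgc3, the C-type gene at the end of the listed array, led with 58.1, 56.8 and 56.5 TPM (57.2 ± 0.855), or 105 ± 1.57 over unshared bases. It held 47.5 ± 0.758% of the summed TPM of the 13 listed gamma genes, which was 120 ± 2.89. Pcdhga7 came next at 13.2, 13.1 and 13.8 TPM (13.4 ± 0.343), and Pcdhgb8 at 8.95, 9.74 and 7.40 TPM (8.70 ± 1.20). The library ranges of Pcdhgc3 and Pcdhga7 did not overlap, and Pcdhgc3 was 4.27 ± 0.150 times Pcdhga7 and 60.3 ± 4.28 times Pcdhga9, the lowest of the array. In between, the other 9 genes ranged from 1.84 TPM for Pcdhga8 to 6.93 TPM for Pcdhga2. Of the 13 gamma genes 12 were above 1 TPM by limma, and Pcdhga9, at 0.927, 1.03 and 0.901 TPM, passed in neither direction (adjusted p = 0.616). Over unshared bases Pcdhga9 was at 1.71 ± 0.119 and above 1 TPM, so that all 13 were.

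In the alpha array, Pcdhac2, again a C-type gene and the last of the array, was at 21.9, 22.2 and 21.4 TPM (21.8 ± 0.389), or 46.1 ± 0.824 over unshared bases, and formed 78.5 ± 1.19% of the array's 27.8 ± 0.674 TPM. Pcdha4 followed at 1.78, 2.36 and 2.11 TPM (2.08 ± 0.289), and both were above 1 TPM by limma. Pcdhac2 was 10.6 ± 1.49 times Pcdha4. Pcdha13, at 0.902, 0.997 and 1.08 TPM, passed in neither direction (adjusted p = 0.931). The 12 others were below 1 TPM: Pcdha3 at 0.615 ± 0.00577 was the highest of them, Pcdha7, Pcdha11 and Pcdha5 were at 0.377 to 0.418, and Pcdha6, Pcdha2, Pcdha1, Pcdha10, Pcdha9, Pcdhac1, Pcdha12 and Pcdha8 were at 0.0717 to 0.226. Over unshared bases, the calls by limma changed for 5 alpha genes. Pcdha13 (2.18 ± 0.194) and Pcdha3 (1.36 ± 0.0124, adjusted p = 0.012) were then above 1 TPM, and Pcdha7, Pcdha11 and Pcdha5 passed in neither direction, which left 8 below.

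Beta genes have no constant exons, and 10 of the 11 are listed with a single exon (Pcdhb12 with 2). All 11 were above 1 TPM by limma, at 1.33 to 5.89 TPM, and summed to 39.9 ± 1.45 TPM. Pcdhb3 was highest at 5.67, 4.89 and 7.11 TPM (5.89 ± 1.12), followed by Pcdhb20 at 4.85, 5.17 and 4.86 TPM (4.96 ± 0.180) and Pcdhb5 at 4.51, 4.73 and 4.95 TPM (4.73 ± 0.222). The ranges of these 3 genes overlapped, and the leading gene took 14.7 ± 2.29% of its array's sum, a much smaller share than Pcdhgc3 or Pcdhac2 took of theirs. Pcdhb6 was lowest at 1.17, 1.56 and 1.253 TPM, with an adjusted p of 0.032 that rose to 0.0681 to 0.0948 when any 1 library was left out, 0.0576 with a pseudocount of 0.1 and 0.0546 with genes without counts tested too. How reads that match several clustered genes were treated is not given in any source used. Levels of single clustered genes, their shares of an array and the ratios between them are therefore uncertain. Beta genes list no constant exons, so their shares are not like for like with those in the alpha and gamma arrays.

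**Figure D3:**
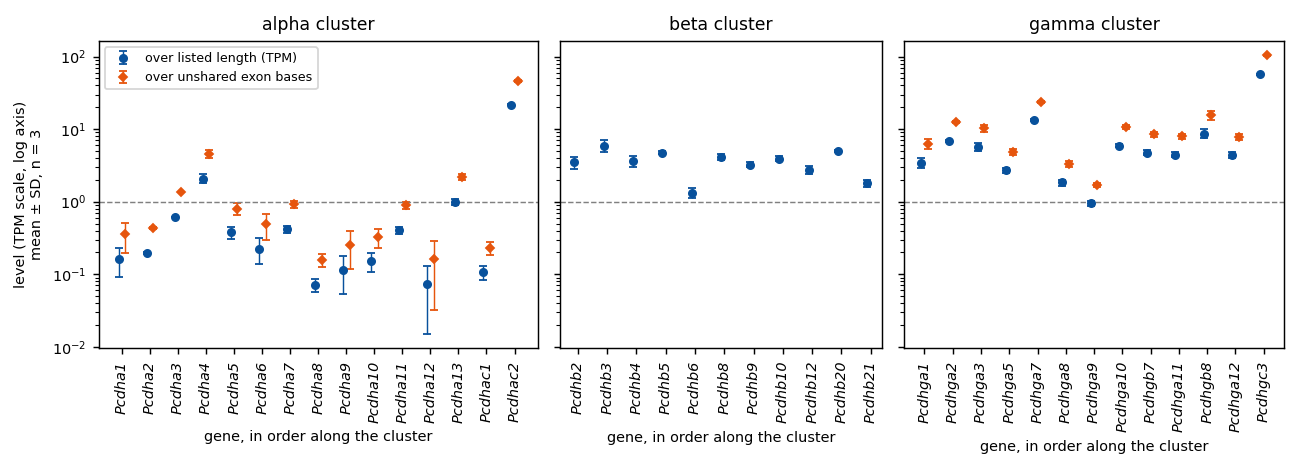
Level of each clustered protocadherin (mean ± SD, n = 3, log axis) in order along the alpha, beta and gamma arrays, over the listed length (circles) and, for alpha and gamma, over exon bases shared with no other row (diamonds); the dashed line marks 1 TPM. The last listed gene of the alpha array (Pcdhac2, 21.8 TPM) and of the gamma array (Pcdhgc3, 57.2 TPM) stands above the other listed genes. Beta genes stay within 1.33 to 5.89 TPM.

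Factors known to organise the clustered promoters were present. By limma, 9 of 9 measured genes of that list were above 1 TPM, against 78.4% of all genes tested, and their median level was 62.0 TPM. The cohesin genes Rad21 at 161 ± 4.23, Smc1a at 81.8 ± 3.44 and Smc3 at 68.2 ± 3.78 TPM, and the insulator protein gene Ctcf at 68.3 ± 1.82 TPM, were the 4 highest. Dnmt3b, a DNA methyltransferase, was lowest at 2.54 ± 0.187 TPM.

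The giant cadherins of planar polarity were led by Fat1 and Celsr2. Fat1, a large cadherin linked to actin and Hippo signalling, was at 62.6, 54.1 and 55.8 TPM (57.5 ± 4.50). Fat4, which pairs with Dchs1 across cell contacts, was at 7.6, 6.49 and 6.26 TPM (6.78 ± 0.718), and Dchs1 was at 14.5, 14.0 and 14.5 TPM (14.3 ± 0.301). Fat3 was at 0.544 ± 0.0206 TPM, below 1 TPM by limma, and Fat2 had no count, with 3 counts corresponding to 0.0280 to 0.0301 TPM. Fat1 thus exceeded Fat4 by 8.49 ± 0.365 times and Fat3 by 106 ± 6.99 times. Celsr2, a cadherin with a seven-pass receptor body, was at 143, 135 and 131 TPM (136 ± 5.83), 71.2 ± 1.49 times Celsr3, which is known from neurons and was at 1.96, 1.94 and 1.85 TPM (1.92 ± 0.0594).

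Replicate 1 was the highest library for Fat1, Fat4 and Celsr2. For genes with a mean of 1 TPM or more, the median ratio of replicate 1 to the mean of the other libraries grew with listed length, from 1.002 in 4809 genes under 2000 bases to 1.08 in 73 genes of 10000 bases or more. The ratio was 1.14 for Fat1, which is 14744 bases long, 1.19 for Fat4 at 16046 bases and 1.07 for Celsr2 at 9023 bases. Dchs1, at 10462 bases, had a ratio of 1.02 and Celsr3, at 11868 bases, of 1.04, so 2 of the 4 members of 10000 bases or more lay under the median of their class. RNA integrity was not given in the sources used here, and its part in this was not tested.

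**Figure D4:**
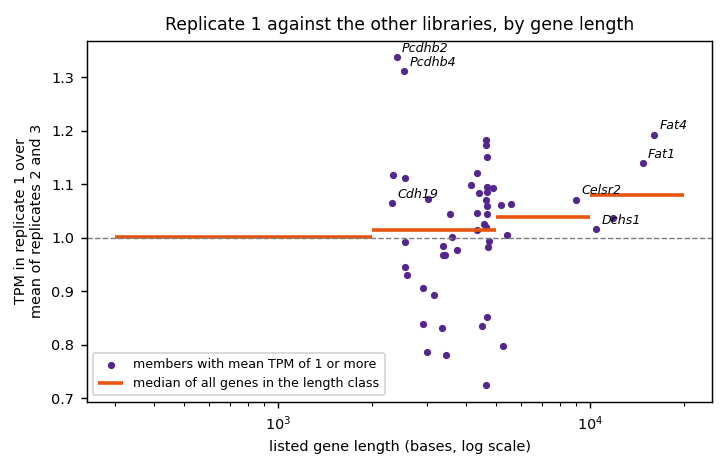
Ratio of TPM in replicate 1 to the mean of replicates 2 and 3 against listed gene length (log axis) for members with a mean of 1 TPM or more (points), with the median of all genes in each of 4 length classes (orange lines). Class medians go from 1.002 to 1.08, and Fat1 at 1.14 and Fat4 at 1.19 lie above the median of their class.

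By limma, 15 of 15 measured planar polarity and Fat partners of these large cadherins were above 1 TPM, against 78.4% of all genes tested. Their median level was 39.6 TPM. Ptk7, a polarity co-receptor, was at 156 ± 4.37, the signal transducer Dvl3 at 113 ± 1.45, the scaffold gene Scrib at 86.5 ± 1.77 and Dvl2 at 51.3 ± 2.49 TPM. The core polarity gene Vangl2 was at 10.6 ± 0.471 TPM and the ligand Wnt5a at 3.82 ± 0.236 TPM.

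Calsyntenins, cadherin-like membrane proteins of transport vesicles and synapses, followed the same uneven pattern. Clstn1 was at 142, 137 and 143 TPM (141 ± 3.0), 95.6 ± 0.141% of the group, while Clstn3 was at 4.08, 3.90 and 3.71 TPM and Clstn2 at 2.32, 2.69 and 2.84 TPM. All 3 were above 1 TPM by limma. The library ranges of Clstn1 and Celsr2 overlapped.

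Most adherens junction partners measured were above 1 TPM, as were 78.4% of all genes tested, and most desmosome genes measured were not. Of the 16 adherens junction partners listed, 15 were measured, and 14 were above 1 TPM (median 55.5 TPM), led by Ctnnb1, the actin crosslinker Actn4 at 437 ± 3.82, vinculin Vcl at 193 ± 1.55 and the actin-binding Lima1 at 185 ± 4.62 TPM. Nectin4 was below at 0.265 ± 0.120 TPM, while Nectin1, Nectin2 and Nectin3, adhesion molecules that start junctions, were at 38.6 to 52.8 TPM. Of the 12 desmosome genes listed, 4 (Dsp, Dsg1, Dsg2 and Dsc1) were not analysed here, and of the other 8, 1 was above, the plakophilin Pkp1 at 10.5 ± 0.432 TPM. Pkp2, at 1.24, 1.47 and 0.768 TPM, passed in neither direction, Dsc2, Perp and Dsc3 were below at 0.0337 to 0.261 TPM, and Pkp3, Dsg3 and Dsg4 had no count. Jup, at 115 ± 3.33 TPM, was higher than each of these 8 genes in every library.

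Enzymes that cut cadherins were among the higher partners, with a median of 138 TPM. Of these 9 genes, 8 were above 1 TPM, against 78.4% of all genes tested. The membrane protease gene Mmp14 was at 807 ± 13.3, the gamma-secretase subunits Psenen and Ncstn at 316 ± 3.06 and 197 ± 1.57, and the sheddase Adam17 at 249 ± 5.53 TPM. Adam10, which sheds N- and E-cadherin, was at 135 ± 3.84 TPM, and Aph1b was below 1 TPM at 0.126 ± 0.120.

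Transcription factors known to repress E-cadherin were all expressed in the libraries that held Cdh1 at 33.3 TPM. Of 6 genes 6 were above 1 TPM, with Zeb2 at 283 ± 8.58, Zeb1 at 102 ± 4.67, Snai2 at 52.6 ± 1.80 and Snai1 at 37.1 ± 1.88 TPM. Whether Cdh1 and these factors are made by the same cells cannot be read from bulk libraries. With 78.4% of all genes tested above 1 TPM, high counts in such lists do not set them apart.

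**Figure D5:**
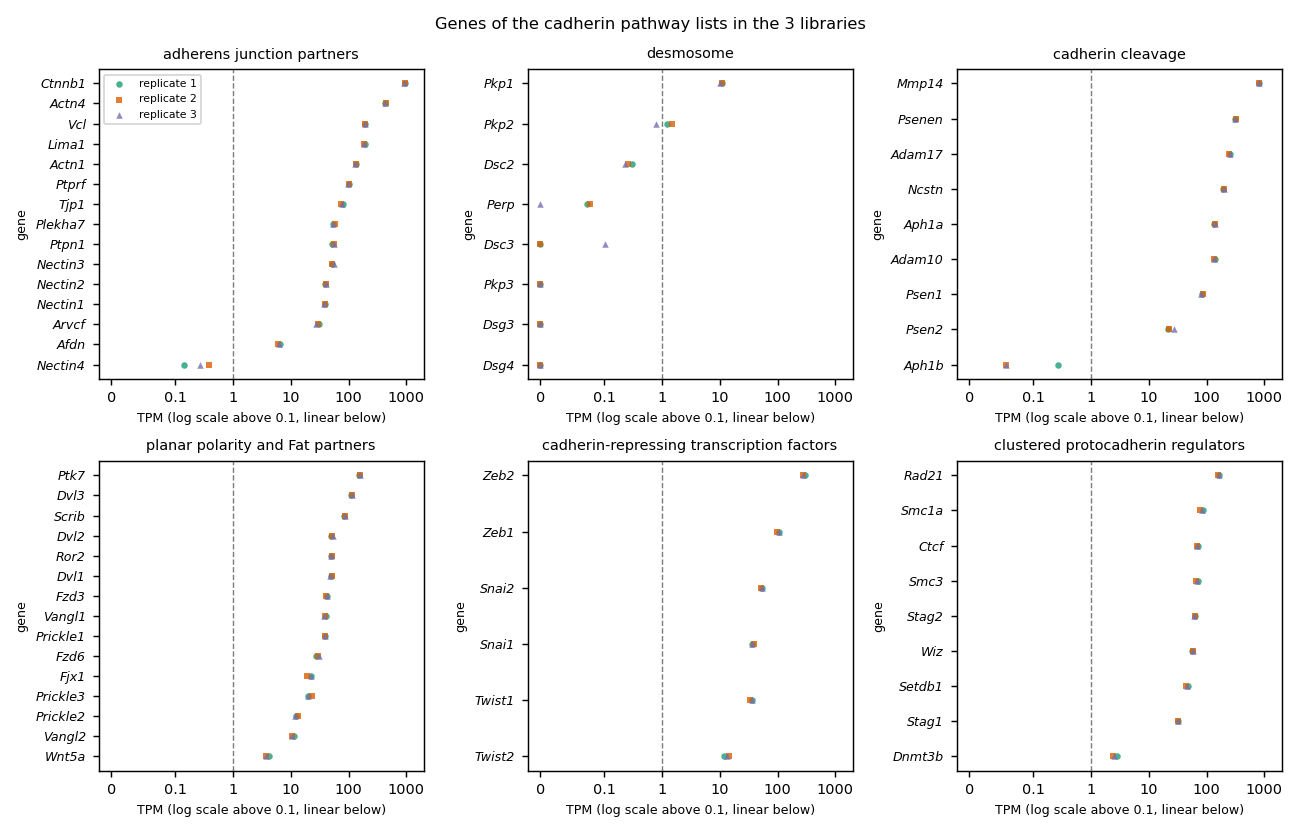
TPM of each measured gene of 6 pathway lists in replicates 1, 2 and 3 (log axis above 0.1 TPM, linear below); dashed lines mark 1 TPM. In 5 of the lists nearly all genes lie above 1 TPM, whereas in the desmosome list Pkp1 at 10.5 TPM is the one gene called above.

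For the 51 members with a mean of 1 TPM or more, the highest library was a median of 1.12 times the lowest, against 1.09 times for the 10732 genes with that mean, and none exceeded 1.5 times, against 4.86% of those genes. In 12 of the 51 members, or 23.5%, the highest library exceeded the lowest by more than 25%, against 14.1% of those genes. For the 21 members at 10 TPM or more the median was 1.06, against 1.08 for all such genes, and in none of the 21 was the gap over 25%. The widest was Pcdhb3 at 1.45 times, with replicate 3 the highest. Replicate 1 was the highest library for 26 of the 51 members, or 51.0%, against 41.7% of all such genes. In the order of all members by mean level, 60 of the 82 neighbouring pairs had overlapping library ranges, most of them under 10 TPM, so the order among low members is not resolved, while the 9 members at 100 TPM or more overlapped with a neighbour only for Cdh19 with Cdh11 and Clstn1 with Celsr2.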

How the data were processed

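The 3 libraries were made with an Illumina stranded mRNA kit, per the labels' protocols. The submitters' processing notes name STAR 2.5.2b, Subread and the rn6 build. Strand setting, annotation and what was done with multiply matching reads: not given in the sources used here. The deposited table holds raw counts per gene, gene length, values per kilobase (a signal the authors deposited, not used further) and TPM that the authors made from counts and lengths. TPM recomputed from counts and lengths lay within 0.0005 of the deposited TPM. Not used were 6 columns of library totals and 2 rows naming no gene. Columns were matched to libraries by the number in title and column name.

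Members, lists and alternatives were chosen with earlier results of these data known. Each gene with a count was tested with limma 3.58.1 (R 4.3.3) on log2(TPM + 1) against 1 TPM, with trend, two-sided, with Benjamini-Hochberg adjustment over 13345 genes; the pseudocount shrinks differences of low genes. edgeR 4.0.16 on the counts, with an offset placing 1 TPM at 0 and the quasi-likelihood F taken from deviances, was an alternative. Both tests were run on simulated counts with the same dispersion for every gene, and the outcome is not given here. Of 126 list symbols 116 were matched, 5 of them by a synonym. A floor is 3 counts, and floors cover counting error only. Named are members with a mean of 10 TPM or more, the 3 highest of each role group, members under 1 TPM, the 4 highest and the members under 1 TPM of pathway lists, the 3 highest of marker lists (except the withheld one) and the member with the widest spread; other names were chosen after their values were seen. That marker is not reported here.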

Additional observations from a re-analysis of the deposited data

How the results depend on the processing

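Against 5 TPM in place of 1 TPM, 26 members were above and 45 below, and against 0.5 TPM 54 and 17. Among the 55 members that share no exon base, which include the 5 untested members without a count, 36 were above and 13 below 1 TPM. Under the other settings tried for these counts (other pseudocounts, filters and variance model, TMM scaling, edgeR), 49 or 50 members were above and 22 to 30 below, the 30 with genes without counts tested too. Leaving out 1 library gave 49 above and 23 to 25 below. Over unshared exon bases, a setting added after seeing the data, 53 members were above and 21 below, and summed levels were 59.3 TPM for alpha, 218 for gamma, 317 for all clustered protocadherins, 472 for all protocadherins and 2542 for all members. With members that share exons left out they were 0 for alpha and gamma, 39.9 for clustered protocadherins, by construction, the summed TPM of all protocadherins was 194 and the summed TPM of all members was 2265. Over unshared bases Pcdha3 turned from below to above 1 TPM, by 0.24 on the log2(TPM + 1) scale. Apart from that setting, calls of single members were lost for Pcdhb6, Pcdh20 and Pcdh11x alone, as given above; other reference levels were tried for the counts only. No paired analysis was possible because all libraries belong to 1 group. Depth limits the lowest members most: Pcdh8, Pcdha8 and Pcdha12 rest on 8 counts each over the 3 libraries.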
